A study of Mus musculus with 2 samples.

Results

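The genes described here write, erase and read acetyl groups on histones, and their messenger RNA was measured in mouse embryonic stem cells with and without an shRNA against Mll2. They comprise 35 listed genes in all: 11 acetyltransferases and coactivators, 2 BET readers, 11 zinc-dependent deacetylases, 7 sirtuins and 4 corepressor scaffolds. Their probe sets were taken by name, as every probe set whose platform annotation gives that gene alone. This found 72 probe sets for 34 of the 35 genes, among 18193 named genes on the array. The 35 genes lie on 19 chromosomes. For Ncor1, the scaffold of the NCoR corepressor, no probe set was named alone and it was not analysed here.

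The cells were of the E14 line, an established mouse embryonic stem cell line. In the Mll2 shRNA group they carried a lentivirus expressing a short hairpin RNA (shRNA) for Mll2 knockdown, and in the control group a lentivirus with a control shRNA. Both groups were infected for 24 h and selected with puromycin for 5 days, so that each is a selected pool of a single line. The sources used here do not give the hairpin sequences. One Affymetrix 3' array was hybridised per group, so no test was possible, no difference has a replicate check, and no p-value is given. All values are MAS5 signals, which summarise the probes of a probe set after mismatch correction. In bulk RNA, fewer cells that express a gene and less RNA per cell cannot be told apart.

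Acetyltransferases transfer an acetyl group from acetyl-CoA to lysines of histone tails, which loosens chromatin and creates docking sites for bromodomains such as those of the BET proteins. Deacetylases remove it, the zinc-dependent classes by hydrolysis and the sirtuins with NAD+ as a cosubstrate, and most nuclear deacetylases work inside scaffolds such as SIN3, NuRD, CoREST and NCoR. In embryonic stem cells p300 and CBP acetylate active enhancers, the same elements at which Kmt2d places methyl groups on histone H3 lysine 4.

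The targeted transcript was examined first. Both Kmt2d and Kmt2b have been called Mll2, and which of them was meant is not stated in the labels. Kmt2d had a signal of 335 in Mll2 shRNA cells, against 736 in control cells, a log2 ratio of -1.14, whereas Kmt2b had 852 in Mll2 shRNA cells and 901 in control cells (-0.08). Of the Kmt2d probe sets only 1435550_at was above the floor, a signal of 64.7, which is the median of all signals pooled and to which lower signals were raised.

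The acetylation genes had similar signals on both arrays. Of the 34, 33 had a probe set above the floor in either array and are called measured, as were 11805 of all named genes, or 64.9%. None of the 33 was at least 2-fold higher or lower, where 1.47% of all measured genes were higher and 0.983% lower by that much. At 1.5-fold, Kat6b alone was higher, against a background of 7.4%, and no gene was lower, against 4.68%. For a set of 33 genes, these counts are near the background and are no result about acetylation genes in particular. The median log2 ratio (Mll2 shRNA over control shRNA) was 0.10 over the 33 genes and 0.03 over all measured genes.

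The ratios of single genes were read against the spread at their level, a robust SD (from the median absolute deviation) of ratios among the 500 genes closest in mean signal. Noise, real differences and variation between the 2 cultures all enter it. Of 30 acetylation genes that passed the floor on both arrays, 7 had a ratio larger than this spread, 23.3% of them, where 33% of all such genes did. Higher by more than the spread were Kat6b, Ncoa2, Sirt7, Kat2b, Sin3a and Brd3 (background 19.1%), and lower by more was Hdac4 (background 13.9%). These calls hold for the deposited values and depend on scaling. After quantile normalization Sirt7 at 0.34 and Brd3 at 0.25 were below those spreads of 0.38 and 0.26. With scaling on spike-in probe sets Hdac8, at 0.58, was above its spread of 0.52. Hdac5, Ncoa1, Kat8, Ncoa3, Hdac2 and Hdac3 also passed those spreads under that scaling. Hdac4, at -0.33, was then inside its spread of 0.37. Spike-in scaling raised the ratios of all genes, and the share of all genes beyond the spread was not counted with it. The median size of the ratio, without its sign, was 0.16 in these 30 genes and 0.21 in all 10688 genes that passed the floor on both arrays. The sign was positive in 20 of the 30, or 66.7%, against 53.7% of all such genes.

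**Figure D1:**
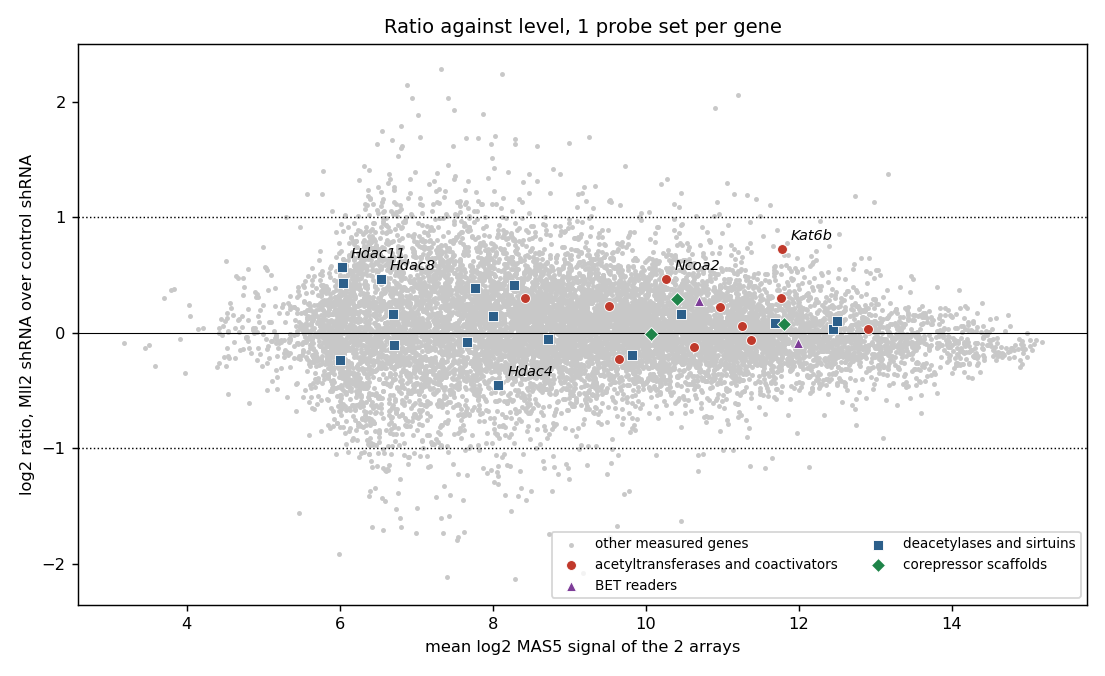
Log2 ratio of Mll2 shRNA over control shRNA (vertical axis) against the mean log2 MAS5 signal of the 2 arrays (horizontal axis) for every measured gene, with the acetylation genes in colour and dotted lines at 2-fold. All 33 coloured points lie between the dotted lines, and the highest is Kat6b at 0.72.

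Promoters of 4 genes are shown because of where their values lie: Kat6b had the largest ratio among genes measured on both arrays, Kat2a was lower in all 3 of its probe sets, Hdac11 had the largest bound in a brightest probe set, and Hdac9 was not measured. Each line gives the 250 bases before the RefSeq start site nearest to the annotated gene start, 5′ to 3′ on the gene's strand, in assembly GRCm38.p6. Capitals mark each CG dinucleotide, the base pair step that is methylated in mammalian DNA and, when unmethylated, is bound by the CXXC domain of proteins such as Kmt2b.
Kat6b, chr14:21499520-21499769, plus strand: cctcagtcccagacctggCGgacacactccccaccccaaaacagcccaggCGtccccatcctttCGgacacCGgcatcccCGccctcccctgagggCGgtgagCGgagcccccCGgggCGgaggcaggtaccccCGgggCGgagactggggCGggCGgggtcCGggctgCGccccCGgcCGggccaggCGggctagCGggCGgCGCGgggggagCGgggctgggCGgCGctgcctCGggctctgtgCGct
Kat2a, chr11:100712468-100712717, minus strand: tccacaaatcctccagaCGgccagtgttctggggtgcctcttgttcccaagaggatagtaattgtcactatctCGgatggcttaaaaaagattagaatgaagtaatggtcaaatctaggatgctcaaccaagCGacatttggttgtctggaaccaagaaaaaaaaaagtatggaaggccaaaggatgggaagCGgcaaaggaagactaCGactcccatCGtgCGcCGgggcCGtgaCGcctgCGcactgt
Hdac11, chr6:91156565-91156814, plus strand: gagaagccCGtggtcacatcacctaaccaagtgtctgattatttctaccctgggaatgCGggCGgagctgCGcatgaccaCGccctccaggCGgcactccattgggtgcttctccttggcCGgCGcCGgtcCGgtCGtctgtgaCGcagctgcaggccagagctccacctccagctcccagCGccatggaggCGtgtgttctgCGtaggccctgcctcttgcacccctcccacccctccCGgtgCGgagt
Hdac9, chr12:34917096-34917345, minus strand: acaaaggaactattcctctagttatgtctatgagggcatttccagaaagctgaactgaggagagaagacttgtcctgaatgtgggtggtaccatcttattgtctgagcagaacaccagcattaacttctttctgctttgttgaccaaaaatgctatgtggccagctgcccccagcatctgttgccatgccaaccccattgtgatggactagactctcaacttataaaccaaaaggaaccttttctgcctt

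The Kat6b window held 27 CG dinucleotides, the Hdac11 window 17 and the Kat2a window 11. Of these, 8 in Kat2a, 16 in Kat6b and 5 in Hdac11 lie within the last 100 bases before the start site. The window of Hdac9, a gene under the floor on both arrays, held 0, and the one at its other start site held 2. The motif searched was CG, which reads the same on both strands, and no other motif was searched. RefSeq windows were found for 30 of the 35 genes, and 29 of these held at least 1 CG, as did 91.7% of the windows of all 27025 genes in the table. The median count was 16 in the 30 acetylation genes and 6 in all genes. Against the 9559 measured genes with a window the count was not unusual, since their median was 16 too, the same as in the 28 measured acetylation genes. Crebbp had the highest count at 44, followed by Ncoa1 at 40 and Sirt1 at 39.

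Ep300 and Crebbp encode p300 and CBP, the paired acetyltransferases of enhancers. Ep300 had a signal of 2498 in Mll2 shRNA cells and 2398 in control cells, a log2 ratio of 0.06, from its only probe set. Crebbp had 2591 in Mll2 shRNA cells and 2704 in control cells (-0.06), and its other 2 measured probe sets gave -0.0025 and -0.19. Both ratios were well inside the spread of 0.27 and 0.26 at their levels.

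Kat2a and Kat2b, also known as GCN5 and PCAF, are alternative catalytic subunits of the SAGA and ATAC coactivator complexes. Kat2a had a signal of 1511 in Mll2 shRNA cells, against 1648 in control cells (-0.12, inside the spread of 0.26). Its dimmer probe sets gave -0.31 (306 in Mll2 shRNA cells and 378 in control cells) and -0.53 (105 in Mll2 shRNA cells and 152 in control cells). All 3 probe sets were lower in Mll2 shRNA cells, with a mean of -0.32 ± 0.20 (SD over 3 probe sets). Kat2b had 3876 in Mll2 shRNA cells, against 3145 in control cells, a ratio of 0.30 with a spread of 0.23 at its level. Its second probe set was above the floor in Mll2 shRNA cells only, where it gave a signal of 89.1, against 33.5 in control cells, and was higher by at least 0.46 on the log2 scale. The 2 paralogs had ratios of opposite sign in every measured probe set. Of their brightest probe sets, only that of Kat2b exceeded the spread. Hat1, which acetylates newly made histone H4 before it is deposited, had 7755 in Mll2 shRNA cells and 7589 in control cells (0.03).

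The MYST family acetyltransferases were Kat5, Kat6b and Kat8. Kat6b, also known as MORF, acts with BRPF scaffolds on histone H3 and had the largest difference among the 30 genes above the floor in both groups. Its signal was 4511 in Mll2 shRNA cells and 2729.6 in control cells, which is 1.65-fold higher, a log2 ratio of 0.72 with a spread of 0.23 at its level. This value rests on a single probe set, 1423508_at. The other 2 Kat6b probe sets lay below the floor on both arrays, at signals of 43.8 and 7.67 in Mll2 shRNA cells and 46.8 and 2.16 in control cells, and give no second reading. Kat5, or TIP60, the catalytic subunit of the NuA4 complex, had probe sets of opposite sign. One gave 743 in Mll2 shRNA cells and 868 in control cells (-0.22), and the other gave 775 in Mll2 shRNA cells and 654 in control cells (0.24), so that their mean was 0.01 ± 0.33 (SD over 2 probe sets). Kat8, also called MOF, which acetylates histone H4 lysine 16 in the MSL and NSL complexes, had 794 in Mll2 shRNA cells and 675 in control cells (0.23, spread 0.29).

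The p160 coactivators Ncoa1, Ncoa2 and Ncoa3 bridge nuclear receptors to p300 and CBP, and in the brightest probe set of each gene all were higher in Mll2 shRNA cells. Ncoa1 had a signal of 380.5 in Mll2 shRNA cells, against 309 in control cells (0.30), and its second probe set gave 0.45. Ncoa2 had 1439 in Mll2 shRNA cells, against 1040.4 in control cells (0.47), the second largest ratio among the 30 genes. That value was not shared by its other probe sets, which gave -0.08 and, with the Mll2 shRNA array below the floor, -0.61 as a bound. Ncoa3, which binds the estrogen-related receptor Esrrb in embryonic stem cells, had 2157 in Mll2 shRNA cells and 1852 in control cells (0.22), but its second probe set gave -0.07. Only for Ncoa1 did the probe sets of a p160 gene share a sign.

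The BET readers bind acetylated histone H4 through paired bromodomains and recruit elongation factors. Brd2 had 3934 in Mll2 shRNA cells and 4194 in control cells (-0.09), and 0.01 in its second probe set. Brd3 had 1828 in Mll2 shRNA cells and 1513 in control cells (0.27), where its other 3 probe sets gave 0.17, -0.09 and -0.16. The mean over the 4 Brd3 probe sets was 0.05 ± 0.21 (SD), so the reading of the brightest probe set did not carry over to the gene.

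**Figure D2:**
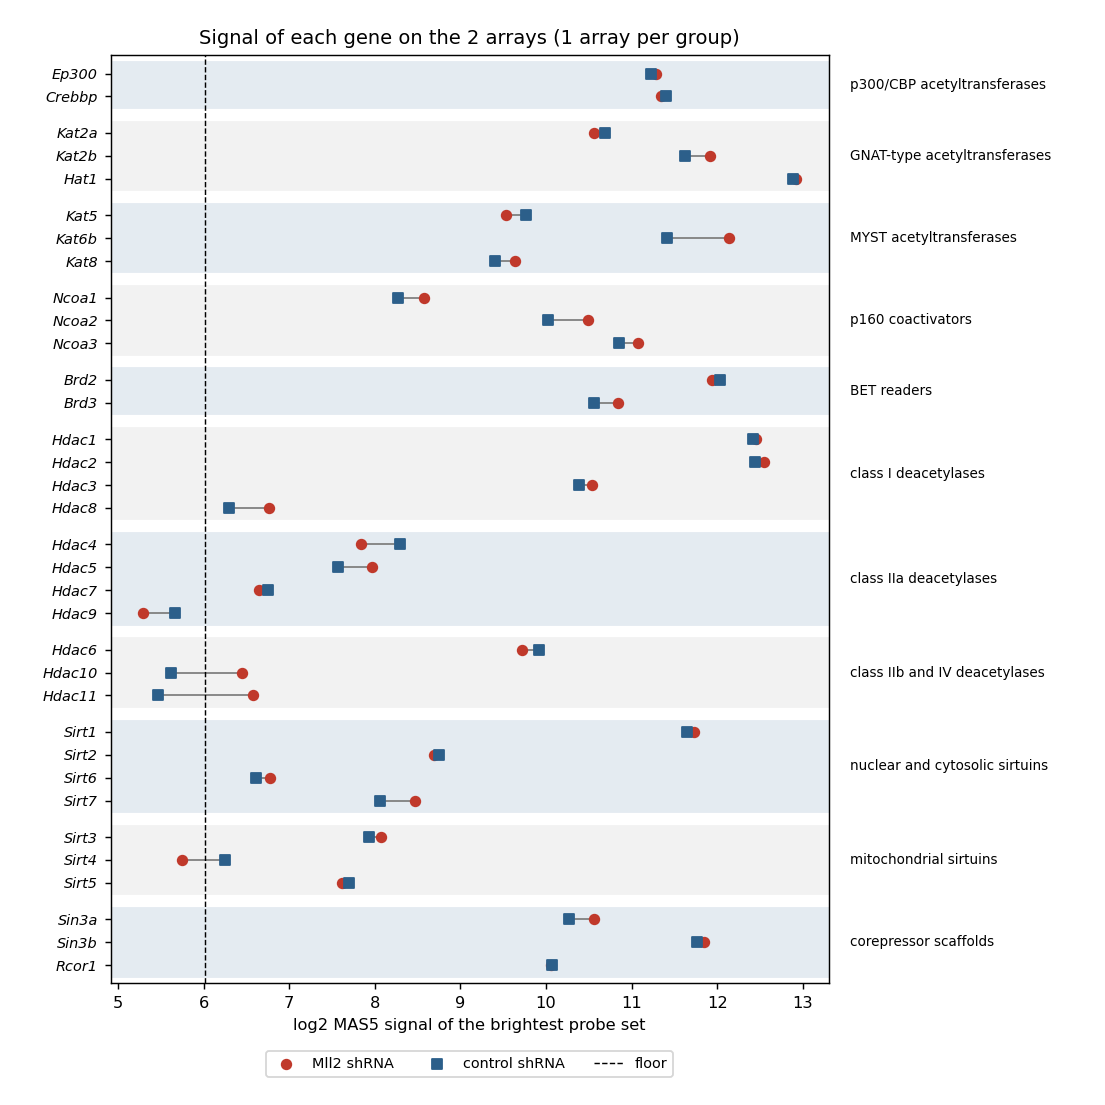
Log2 MAS5 signal (horizontal axis) of the brightest probe set of each gene in Mll2 shRNA cells (red circles) and control cells (blue squares), grouped by role, with the floor as a dashed line. Points are to be compared within a row only, since signals of different probe sets do not share a scale; Kat6b has the widest gap among genes with both points above the floor.

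Of the class I deacetylases, Hdac1, Hdac2 and Hdac3 are the nuclear enzymes of the large corepressor complexes. All 4 class I genes had positive ratios. Hdac1, shared by NuRD, SIN3 and CoREST, had 5619 in Mll2 shRNA cells and 5492 in control cells (0.03). Its close paralog Hdac2 had 5985 in Mll2 shRNA cells and 5567 in control cells (0.10), and its second probe set gave the same 0.10, an SD of 0.0034 over the 2. Hdac3, the enzyme of the NCoR and SMRT complexes, had 1487 in Mll2 shRNA cells and 1332 in control cells (0.16). These 3 genes were inside the spread at their level, which ran from 0.20 to 0.27. Hdac8, which deacetylates the cohesin subunit Smc3, was dim at 109 in Mll2 shRNA cells and 78.8 in control cells, and its ratio of 0.47 was below the spread of 0.52.

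The class IIa deacetylases shuttle between nucleus and cytoplasm and repress MEF2 targets. Hdac4 had 229.8 in Mll2 shRNA cells, against 314 in control cells, the lowest ratio of the 33 genes at -0.45 (spread 0.37), and its second probe set gave -0.16. Hdac5 had 249.7 in Mll2 shRNA cells and 191 in control cells (0.39, spread 0.42). Hdac7 had 100.2 in Mll2 shRNA cells and 108 in control cells (-0.11). Hdac4 and Hdac5 thus differed in sign. Hdac9 was below the floor in both probe sets, with 39.2 and 5.28 in Mll2 shRNA cells and 50.7 and 7.42 in control cells, so that no difference was detectable.

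Hdac6, the tubulin deacetylase of class IIb, had 844 in Mll2 shRNA cells and 967 in control cells (-0.20, spread 0.28). Hdac10, a polyamine deacetylase, and Hdac11, the class IV enzyme, which removes long fatty acyl groups, were above the floor in Mll2 shRNA cells only. Hdac11 had a signal of 95.8 in Mll2 shRNA cells and 44.3 in control cells and was higher by at least 0.57 on the log2 scale. Hdac10 had 87.4 in Mll2 shRNA cells and 49.1 in control cells and was higher by at least 0.43. Both signals lie so near the floor of 64.7 that a lower floor changes their size: with no floor the log2 ratios were 1.11 for Hdac11 and 0.83 for Hdac10, and Hdac11 passed 2-fold. Over the 10 measured zinc-dependent deacetylases the median ratio was 0.13, with 7 above 0 and 3 below.

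The sirtuins couple deacylation to NAD+. Sirt1, the nuclear enzyme that deacetylates p53 and histones, had 3393 in Mll2 shRNA cells and 3204 in control cells (0.08). Sirt7, a nucleolar sirtuin, had 356 in Mll2 shRNA cells and 268 in control cells, a ratio of 0.41 with a spread of 0.38. Sirt6, a chromatin-bound deacetylase, was at 109 in Mll2 shRNA cells and 97.9 in control cells (0.16). The mostly cytosolic Sirt2 had 414 in Mll2 shRNA cells and 429.8 in control cells (-0.06). As deposited, Sirt7 was the only sirtuin whose ratio exceeded the spread at its level, and each of these 4 genes had a single probe set.

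Among the mitochondrial sirtuins, Sirt3, the main mitochondrial deacetylase, had 269.96 in Mll2 shRNA cells and 243 in control cells (0.15). Sirt5, which removes succinyl and malonyl groups, had 196 in Mll2 shRNA cells and 208 in control cells (-0.08) in its brightest probe set but 0.17 in the second. Sirt4 was above the floor in control cells only, at 53.9 in Mll2 shRNA cells and 76.2 in control cells, and was at least 1.18-fold lower. The median of the 7 sirtuins was 0.08.

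The scaffolds hold deacetylases on chromatin. Sin3a had 1505 in Mll2 shRNA cells and 1229 in control cells (0.29, spread 0.26), while its other probe sets gave -0.13 and 0.17. Its paralog Sin3b had 3665 in Mll2 shRNA cells and 3483 in control cells (0.07), and the 4 of its probe sets that passed the floor on both arrays averaged 0.02 ± 0.08 (SD). The remaining Sin3b probe set was above the floor in control cells only, at 44.2 in Mll2 shRNA cells and 86.5 in control cells, lower by at least 0.42 on the log2 scale, and with it at this bound the mean was -0.07. Rcor1, the CoREST scaffold that joins Hdac1 and Hdac2 to the demethylase Kdm1a, had 1066 in Mll2 shRNA cells and 1074 in control cells (-0.01). Of the scaffolds, Sin3a alone had a brightest probe set beyond the spread, and its mean over 3 probe sets was 0.11 ± 0.22 (SD).

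**Figure D3:**
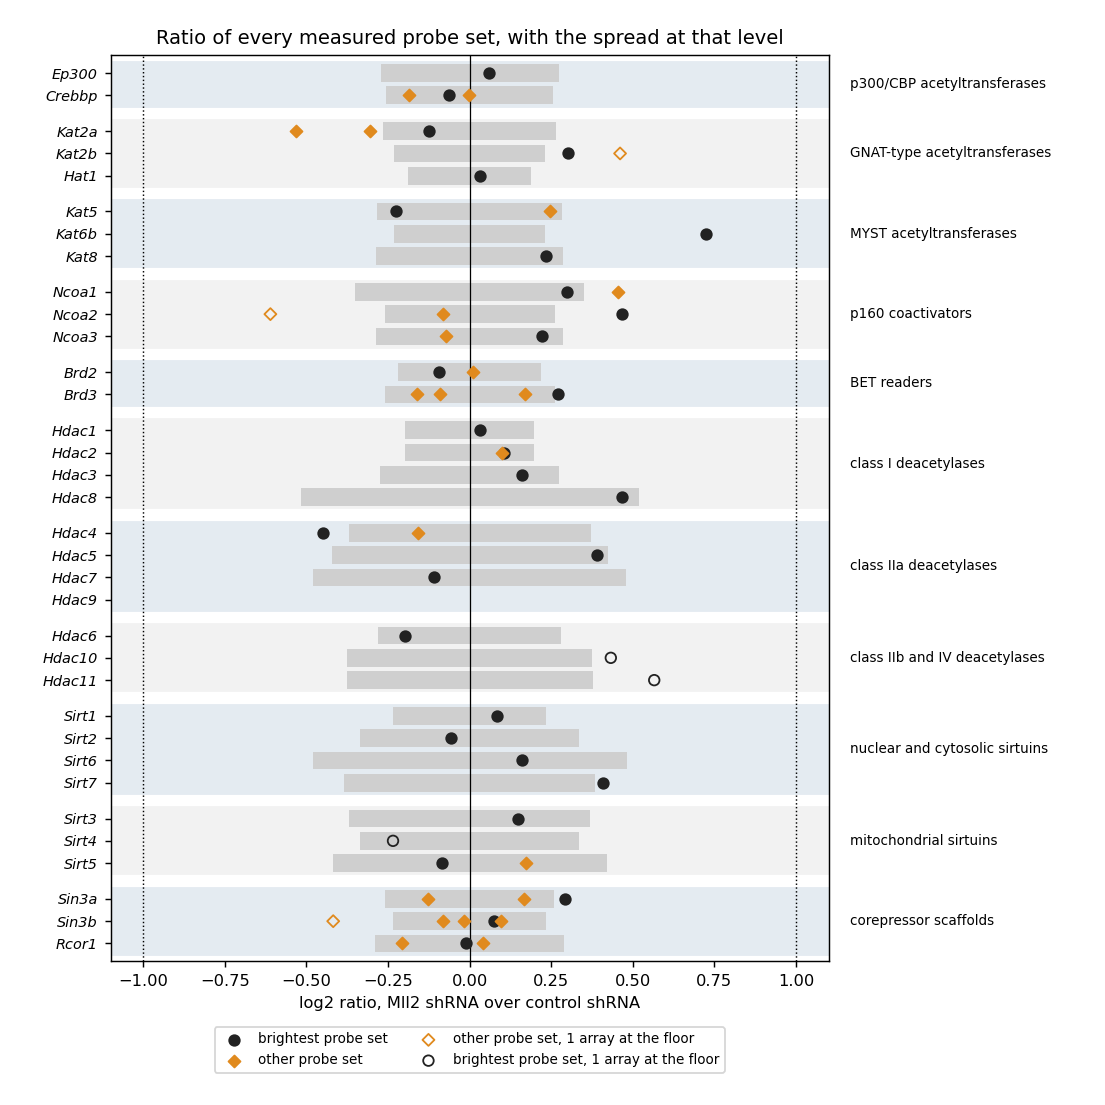
Log2 ratio of Mll2 shRNA over control shRNA (horizontal axis) for every measured probe set of each gene, with grey bars for the spread at that gene's level on either side of 0, open symbols where 1 array was raised to the floor, and dotted lines at 2-fold. The Kat6b point at 0.72 lies farthest outside its bar, and the points of Kat5, Ncoa2, Ncoa3, Brd3 and Sin3a fall on both sides of 0.

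Second probe sets gave a measure of how far a single reading can be trusted. Of 14 acetylation genes with at least 2 probe sets that passed the floor on both arrays, 5 had ratios of 1 sign in all of them (Crebbp, Kat2a, Ncoa1, Hdac2 and Hdac4) and 9 had ratios of both signs. The brightest and the second probe set had the same sign in 7 of the 14, where 66.1% of 4713 genes did. The difference between their ratios had an SD of 0.28 in the 14 genes and 0.37 in all 4713. Probe sets of a gene were read on the same arrays and can share sequence. 

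Scaling bore on the signs. As deposited, 22 of the 33 genes had positive ratios and 11 negative ones. Scaling on 18 spike-in probe sets, whose mean log2 ratio was -0.12, raised the median of all measured genes to 0.14. That of the 33 genes rose to 0.22, with 28 genes above 0 and 5 below. Relative to all measured genes, the median of the 33 was higher by 0.08 as deposited and by 0.08 with spike-in scaling. Over the 5 scalings 27 genes kept their sign, and Crebbp, Brd2, Hdac7, Sirt2, Sirt5 and Rcor1, all slightly below 0 as deposited, did not.

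**Figure D4:**
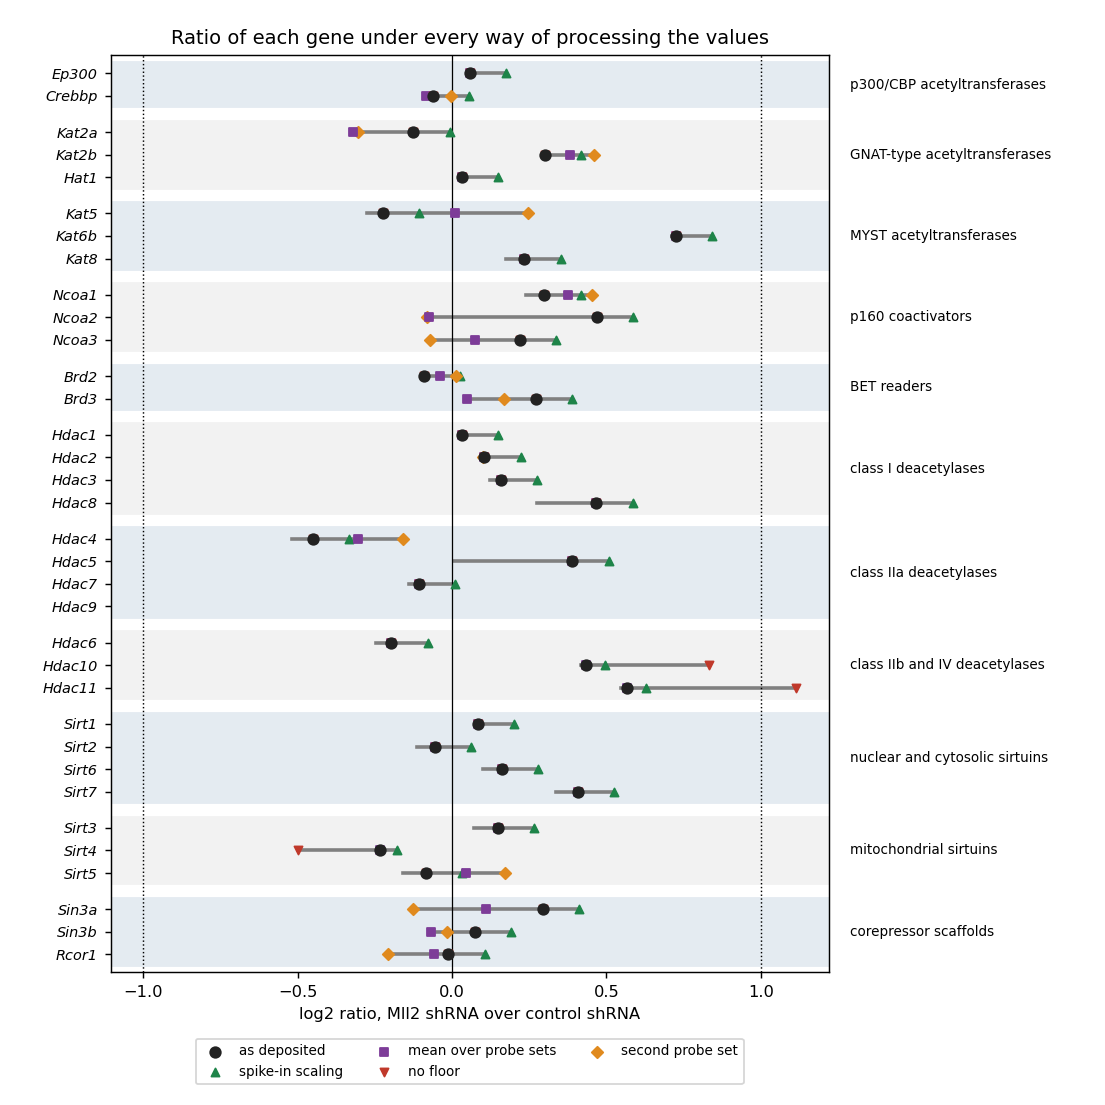
Log2 ratio of Mll2 shRNA over control shRNA (horizontal axis) for each gene as deposited (black) and its range over every way of processing the values (grey lines), with 4 of them marked by colour and dotted lines at 2-fold. Kat6b stays between 0.71 and 0.84, and the Hdac11 line, which ends at 1.11 with no floor, is the only line that crosses a dotted line.

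The subunits that work with these enzymes were described next, from lists of their complexes. Of 113 listed subunits and other acetyl-lysine readers, 105 were measured and their median ratio was -0.01. Only Brwd1, a protein with paired bromodomains, reached 2-fold. It had a signal of 885 in Mll2 shRNA cells, against 439 in control cells (1.01), but 0.20 in its second probe set. At 1.5-fold 4 of the 105 were higher and 5 lower, against backgrounds of 7.4% and 4.68%, so these counts are no result about the partners in particular. For a named partner whose second probe set is not given, that probe set had the same sign as the first or there was none.

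Among the partners in deacetylase complexes, Rcor3, a paralog of Rcor1 in CoREST, had 332 in Mll2 shRNA cells and 185 in control cells (0.84), and its second probe set gave 1.24. The 8 measured CoREST partners had a median of 0.16, with Zmym3 at 0.47, Zmym2 at 0.24 (-0.05 in its second probe set) and Gse1 at -0.43. The 12 NuRD partners were split evenly, 6 above 0 and 6 below (median -0.02). In NuRD the helicase genes Chd3 and Chd4 were at -0.77 and -0.61, and the second probe set of Chd4 gave -0.22. Chd3 was dim, at 78.0 in Mll2 shRNA cells and 133 in control cells, with a spread of 0.49 at its level. Mbd2 and Mta3 were at 0.37 and 0.34, with 1.02 in the second Mta3 probe set. The 12 measured SIN3 partners had a median of 0.06. The paralogs Arid4a and Arid4b, which bind the retinoblastoma protein, were at 0.42 and 0.37, Brms1l was at 0.48 and Brms1 at -0.34. Of 5 NCoR and SMRT partners, Gps2 was at 0.55, Tbl1x at 0.38 (-0.03 in its second probe set), Coro2a at 0.25 and Zbtb33 at -0.20. Gps2 was dim, at 104 in Mll2 shRNA cells and 71.1 in control cells, and was inside its spread of 0.56.

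Among the acetyltransferase complexes, 16 of the 22 measured SAGA and ATAC partners had negative ratios (median -0.08), as did 46.5% of all measured genes. None reached 1.5-fold, where 7.4% of all measured genes were higher and 4.68% lower by that much. Their median was smaller in size than the mean spike-in ratio of -0.12. The signs were not counted again with spike-in scaling, where 32% of all measured genes were below 0. Tada3, an adaptor that is shared by both complexes, was at -0.56 and Supt20 at -0.41, while Atxn7, of the deubiquitinase module, was at 0.54 (0.71 in its second probe set) and Tada2b at 0.43. The 15 TIP60 and NuA4 partners lay around 0 (median -0.0042), with Mrgbp at -0.45, the helicases Ruvbl2 and Ruvbl1 at -0.41 and -0.27, and Epc2 at 0.21. In the MSL and NSL complexes of Kat8, Msl1 was at 0.42 and Hcfc1 at -0.17 (-0.63 in its second probe set), with a median of 0.01 over 10 partners. Of 21 other readers, 9 were above 0 and 12 below (median -0.03). Baz1a, a subunit of an ISWI remodeller, was at -0.75 with -0.99 in its second probe set, whereas Zmynd8 was at -0.75 with 0.41 and Mllt3, a YEATS reader of the super elongation complex, at 0.76 with -0.02.

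Acetyl-CoA, the donor of the acetyl group, comes to the nucleus mainly from ATP-citrate lyase (Acly) and acetyl-CoA synthetase (Acss2). Acly was at 0.31 and Acss2 at 0.64, with 0.05 in the second Acss2 probe set. The mitochondrial Acss1 had 66.9 in Mll2 shRNA cells and 148 in control cells (-1.15), of which the Mll2 shRNA signal was next to the floor. Pdha1, a subunit of pyruvate dehydrogenase, was at -0.29. The median of the 7 measured genes of this list was -0.08.

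**Figure D5:**
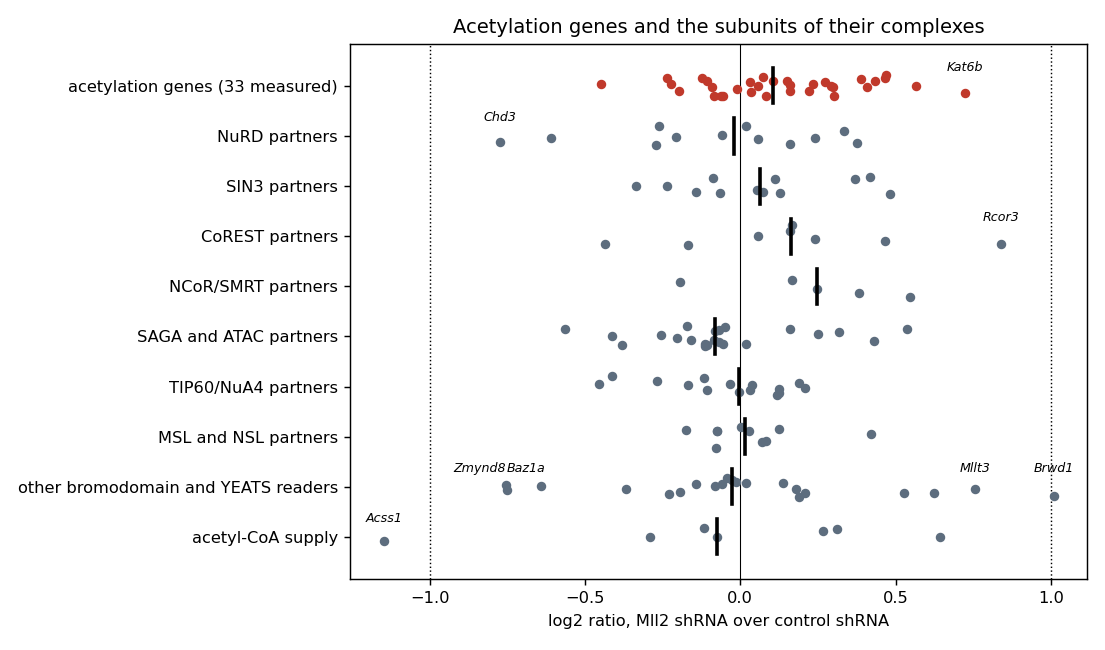
Log2 ratio of Mll2 shRNA over control shRNA (horizontal axis) of the measured acetylation genes and of 9 lists of partner genes (rows), with 1 point per gene, the list median as a black bar and dotted lines at 2-fold. The points scatter around 0 in every row, and Brwd1 and Acss1 alone lie beyond a dotted line.

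The labelled cell type was checked against marker genes. All 14 embryonic stem cell markers were above the floor on both arrays, with a summed signal of 104122 in Mll2 shRNA cells and 113539 in control cells. Pou5f1, which encodes Oct4, had 6975 in Mll2 shRNA cells and 9467 in control cells, a log2 ratio of -0.44. Of the 14 markers 6 were higher in Mll2 shRNA cells and 8 lower, with a median of -0.24. Klf4 was at 0.59 (0.65 in its second probe set), Nanog at 0.47 and Esrrb at 0.53 (-0.22 in its second probe set). The lowest were Lin28a at -0.90 (-0.65 in its second probe set), Fgf4 at -0.65 (-0.32) and Sall4 at -0.58 (0.15). Of markers of other cells, 5 of 10 fibroblast, 5 of 8 neural and 5 of 11 mesoderm and endoderm genes were measured. Their summed signals were 710.4 in Mll2 shRNA cells and 708 in control cells for fibroblasts, 1912 in Mll2 shRNA cells and 1589.5 in control cells for neural cells, and 1080.5 in Mll2 shRNA cells and 591 in control cells for mesoderm and endoderm. All sums of markers add signals not raised to the floor, from probe sets that do not share a scale, so the brightest weigh most. The near-equal fibroblast sums cover 2 genes above 0 and 3 below. In the mesoderm and endoderm list 4 measured genes were above 0 and 1 below. Foxa2, with 601 in Mll2 shRNA cells and 128 in control cells, made up most of the difference between the sums. Gata6 was at 0.03 and Eomes at 0.18 (-0.92 in its second probe set). Sox17 and Mesp1 were above the floor on 1 array only, with bounds of 0.59 and -0.40. In the neural list 4 measured genes were above 0 and 1 below. Sox1 had 286 in Mll2 shRNA cells and 114 in control cells (1.33). Map2 was at 0.59 (-0.35 in its second probe set), Tubb3 at 0.22 and Pax6 at 0.06, whereas Nes was at -0.29, with -0.51 in its second probe set. The fibroblast markers Thy1, Postn, Dcn, Lum and Fap, the neural markers Neurog2 and Dcx and the mesoderm and endoderm markers Mixl1, Gsc, Gata4, Afp and Pdgfra were below the floor on both arrays. The part of such cells in the ratios above was not tested.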

How the data were processed

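RNA from 1 Mll2 shRNA and 1 control shRNA culture was measured on Affymetrix 3' arrays. The deposited values are log2 signals that the authors made with MAS5, per the submitters' processing notes; the sources used here do not give its version or later steps. The 2% trimmed mean of the signals was 500.0 on both arrays. Control probe sets (64 of 45101) were set aside. The platform annotation gave 34945 probe sets 1 gene, 932 several, and 9160 were unnamed here; 34741 symbols were updated to RefSeq through Entrez numbers. Values below the 50th percentile of both arrays pooled (log2 6.02) were raised to it, and the probe set with the highest mean stood for its gene. A ratio with 1 array at the floor is a bound. All 35 genes could be named, with up to 4 per partner list by size of ratio, Kmt2d, Kmt2b and some marker genes. Genes and lists were chosen with earlier results of these data known. Foxa2, Gata6, Eomes, Sox17, Mesp1, Sox1, Tubb3, Pax6, Map2, Nes, Klf4, Nanog, Esrrb, Lin28a, Fgf4 and Sall4 were named after their values were seen. Alternatives covered scaling, floor, pseudocount and probe set choice. The number of arrays limits the precision. The steps were tested on simulated data, with planted differences larger than 2-fold in genes well above the floor. That test does not cover differences as small, or signals as dim, as many described here. Python 3.11.15, numpy 2.4.6, pandas 2.3.3, scipy 1.17.1, statsmodels 0.14.6 and matplotlib 3.10.9 were used.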

Additional observations from a re-analysis of the deposited data

How the results depend on the processing

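With 1 array per group, no array could be left out. No paired analysis was possible because the result comes from no test. Of 334 values of single genes under 11 alternatives, 324 moved by less than the spread at the gene's level and 10 by more. Many could not move, since another floor leaves a gene well above it unchanged. Kat6b, the only gene at 1.5-fold, kept its sign but had no second measured probe set to turn it. Over all settings 22 genes had 1 sign and 11 had both signs. The counts were as reported except under 4 alternatives. With spike-in scaling 3 genes were at least 1.5-fold higher (Kat6b, Hdac11 and Ncoa2), against 11.7% of all measured genes. At a floor of the 30th percentile, and likewise with no floor, 3 genes were at least 1.5-fold higher (Kat6b, Hdac10 and Hdac11) and 1, Hdac11, was at least 2-fold higher in each. Of all measured genes 10.8% were at least 1.5-fold higher at the 30th percentile and 9.84% with no floor, and 3.22% in either case were at least 2-fold higher. Those 2 alternatives use signals that the floor otherwise replaces. With the second probe set, where 15 genes had one, 0 were at least 1.5-fold higher, since Kat6b had no second measured probe set. Ncoa2 was at -0.07 as the mean over probe sets, and Sin3a at -0.13 without suffixed probe sets. With the floor at the 70th percentile 26 of the acetylation genes were measured.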
